A study of Mus musculus with 6 samples.

Results

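The mammalian circadian clock was examined in the prefrontal cortex of BTBR mice through 10 of its genes: Per1, Per2, Per3, Cry1, Cry2, Arntl, Clock, Npas2, Nr1d1 and Dbp. They were taken by name from the arrays' own gene annotation, which gave 18 non-control probes of 41174. All 10 genes, by 17 of the 18 probes, were well above background on all 6 arrays, among 16480 named genes tested. The mice under study were BTBR T+ Itpr3tf/J, an inbred strain used as a model of autism (n = 3), and they were set against wild type C57BL/6J, the common reference strain (n = 3). Every mouse was male, 5 months old and without drug treatment, and whole prefrontal cortex was profiled on one-colour Agilent arrays, 1 array per mouse. The background field of the BTBR samples reads C57BL/6J, while their title, source and genotype name BTBR. The labels do not state at what hour the mice were dissected.

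In the clock, CLOCK or its forebrain relative NPAS2 pairs with ARNTL (also called BMAL1) and switches on genes that carry E-boxes, among them the Per and Cry genes, Nr1d1 and Dbp. The PER and CRY proteins then block that pair, and NR1D1 (REV-ERBα) represses Arntl, so the loop follows a daily cycle and E-box-driven transcripts run out of phase with Arntl and Npas2. Cortical cells of many types carry the loop. Per1 is also switched on directly by neuronal activity and by glucocorticoids.

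Among the 10 genes, Per3 was the one that passed the test, 2.78-fold higher in BTBR. Per1 was lower in every BTBR mouse than in any C57BL/6J mouse and Dbp likewise, while Per2 was higher in every BTBR mouse, and none of these 3 passed. The Cry genes, Clock, Arntl, Npas2 and Nr1d1 had overlapping values by their brightest probes. The 60-base probes that read the 4 non-overlapping genes are shown because each result rests on these letters. They lie, in mm9 as the scanner files give it, at chr4:150379256-150379315 on the minus strand for Per3, chr11:68922878-68922937 on the plus strand for Per1, chr1:93313046-93313105 on the minus strand for Per2 and chr7:52965265-52965324 on the plus strand for Dbp. No mm9 annotation was used here, so their place in the exons is not given. Each is printed from the deposited scanner files in lower case throughout, with no part marked.
Per3 probe: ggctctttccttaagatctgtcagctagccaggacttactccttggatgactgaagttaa
Per1 probe: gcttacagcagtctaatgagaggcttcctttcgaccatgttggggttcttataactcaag
Per2 probe: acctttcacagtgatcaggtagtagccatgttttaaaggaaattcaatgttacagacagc
Dbp probe: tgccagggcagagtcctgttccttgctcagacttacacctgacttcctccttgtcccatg

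Before the genes, the arrays. On the BTBR arrays 29951, 28101 and 29520 probes were well above background, and on the C57BL/6J arrays 29977, 30178 and 30665 were. The files show 2 slides: slide 1 held mice 1 and 2 of each strain, and slide 2 held mouse 3 of each. The 5 cortical excitatory markers were all tested, with median log2 deviations of -0.16 to 0.23 in BTBR and -0.57 to 0.27 in C57BL/6J. The 6 striatal projection neuron markers stood apart in C57BL/6J 3, at 2.51, with BTBR 2 next at 0.54 and the other 4 arrays below 0. Choroid plexus markers, of which 2 of 4 were tested, stood apart in C57BL/6J 1 at 3.01. The 5 oligodendrocyte markers ran from -0.28 to -0.18 in BTBR and from 0.06 to 0.36 in C57BL/6J, and 2 of them passed the test, both lower in BTBR. Of 5 astrocyte markers 1 passed, Gfap, with a log2 fold change of -1.21 (limma adjusted p = 0.0154). Of 5 microglia markers 1 passed, Cx3cr1, at 1.22 (limma adjusted p = 0.00243). In whole tissue, fewer cells of a type and less RNA per cell cannot be told apart. Without C57BL/6J 1, Per3 was 1.47 (limma adjusted p = 0.0153) and Per1 -0.72 (adjusted p = 0.0785) on the log2 scale, and values without C57BL/6J 3 and BTBR 2 are given with the genes. The part of these marker differences in the clock results was not tested.

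Of the 10 clock genes 1 passed the fit over all genes, limma with Benjamini-Hochberg adjustment at 0.05, where 5.65% of all genes did. At an unadjusted p under 0.05 there were 3 (Per1, Per2 and Per3), where 17.1% of all genes were called. The strains' values did not overlap for 4 of the 10, where 23.6% of all genes did not. Means were higher in BTBR for 6 and lower for 4, with a median log2 fold change of 0.10, against 0.01 over all genes. Levels are log2 signals relative to each array's 75th percentile, so that 0 is the percentile itself, and they are compared between strains and not between probes.

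**Figure D1:**
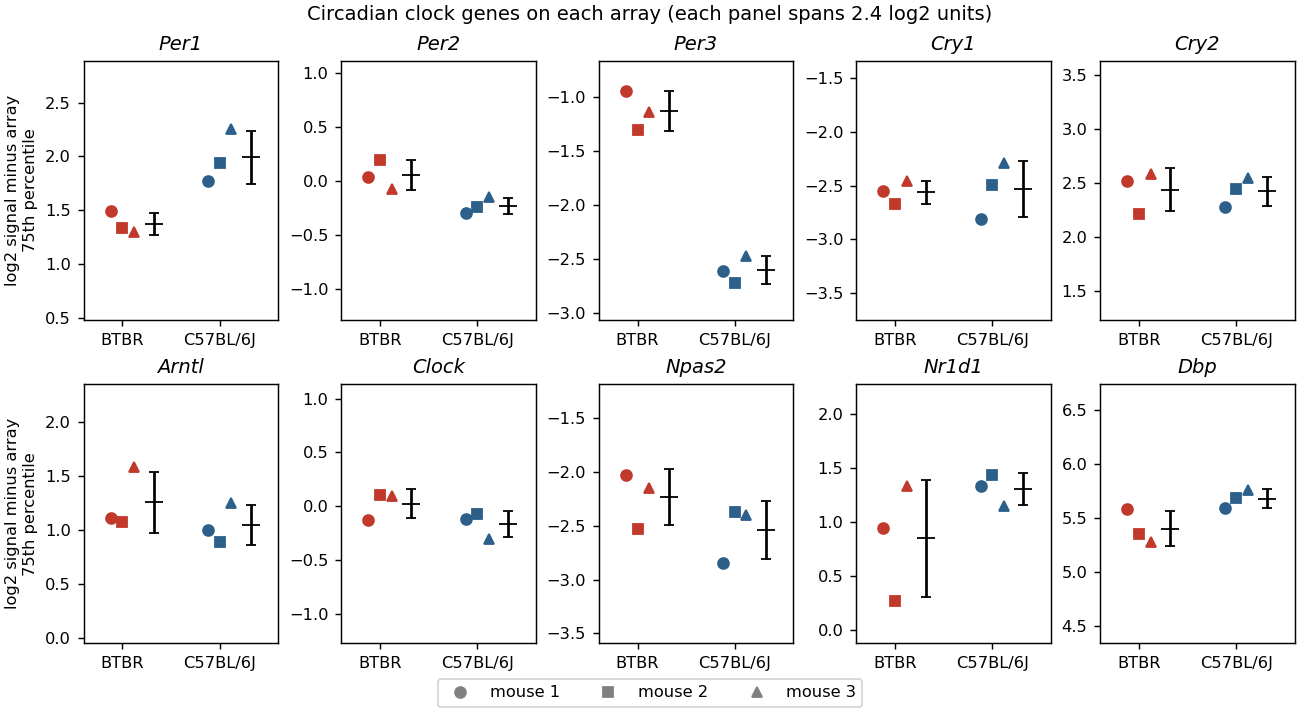
Level of each of the 10 clock genes by its brightest probe (log2 signal minus the array's 75th percentile; every panel spans the same range), one point per mouse with the mean and SD of 3 mice beside each strain. Per3 lies between -1.31 and -0.94 in BTBR, above -2.73 to -2.47 in C57BL/6J, while Per1 and Dbp lie lower in every BTBR mouse.

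The 3 Period genes, which encode repressor proteins of the loop, had log2 fold changes of both signs, and 1 of them, Per3, passed the test. Per3 had levels of -0.94, -1.31 and -1.14 in BTBR mice 1 to 3, against -2.61, -2.73 and -2.47 in C57BL/6J mice 1 to 3. Every BTBR mouse lay more than a log2 unit above the highest C57BL/6J mouse. The means were -1.13 ± 0.18 in BTBR and -2.60 ± 0.13 in C57BL/6J (SD, n = 3 each), a log2 fold change of 1.47 ± 0.13 SE (95% interval 1.16 to 1.79, limma adjusted p = 0.00201). Per3 ranked 175 by p and 343 by size of change among the 16480 genes. It was 1.54 within slide 1 (adjusted p = 0.0137) and 1.33 within slide 2, where 1 mouse per strain allows no test. Without C57BL/6J 3 and BTBR 2, a setting chosen after seeing the data, it was 1.63 (adjusted p = 0.0112). The call was lost with normexp background correction, where the log2 fold change was 1.05 (adjusted p = 0.169). There the levels were -0.74, -0.99 and -0.90 in BTBR and -1.44, -2.26 and -2.08 in C57BL/6J, still without overlap, and C57BL/6J 1 lay nearer to BTBR than its strain mates. In the authors' own log2 values Per3 was at 10.23, 9.96 and 10.14 in BTBR and 9.19, 9.12 and 9.25 in C57BL/6J, a difference of 0.92 with an adjusted p of 0.0022. A single entered probe reads Per3 here, and the same holds for Per1, Cry1, Arntl, Npas2 and Dbp. The BTBR sequence under the probes was not analysed for any gene.

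Per1, whose product is a repressor and whose transcript responds fast to light and activity, had levels of 1.49, 1.34 and 1.30 in BTBR and 1.77, 1.94 and 2.26 in C57BL/6J. The strains did not overlap, and C57BL/6J 3, the array with the high striatal markers, was the highest. Its means were 1.38 ± 0.10 in BTBR and 1.99 ± 0.25 in C57BL/6J (SD, n = 3 each), 1.53-fold lower in BTBR, with a log2 fold change of -0.62 ± 0.15 SE (95% interval -0.97 to -0.26, limma adjusted p = 0.0759). The difference did not pass over all genes. It was -0.44 within slide 1 and -0.96 within slide 2, and -0.46 without C57BL/6J 3 and BTBR 2 (adjusted p = 0.174). A prior with trend and robust settings took it past the threshold at the same size (adjusted p = 0.0348).

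Per2, a repressor and the partner of CRY proteins in the nucleus, had levels of 0.04, 0.20 and -0.08 in BTBR against -0.30, -0.24 and -0.15 in C57BL/6J by its brighter probe. All BTBR values were above all C57BL/6J values, by a margin smaller than the spread within BTBR. The log2 fold change was 0.28 ± 0.11 SE (95% interval 0.02 to 0.54, limma adjusted p = 0.257) and did not pass. The second Per2 probe read -3.68, -3.37 and -3.93 in BTBR and -3.85, -3.64 and -3.67 in C57BL/6J, overlapping, with a log2 fold change of 0.06 (95% interval -0.34 to 0.46). Over all 30011 entered probes, fitted separately, 5.44% passed, and of the 17 clock probes Per3's was the one that did (adjusted p = 0.00197).

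The cryptochromes, which carry the main repressing activity of the PER and CRY complex, were close between strains. Cry1 was at -2.55, -2.67 and -2.46 in BTBR and -2.81, -2.50 and -2.29 in C57BL/6J, and the BTBR mice lay inside the C57BL/6J range. Its log2 fold change was -0.03, with a 95% interval of -0.40 to 0.34 (limma adjusted p = 0.959). A second Cry1 probe was not well above background on any array. Cry2 was at 2.53, 2.22 and 2.58 in BTBR and 2.28, 2.44 and 2.54 in C57BL/6J, with a log2 fold change of 0.02 (95% interval -0.31 to 0.35, adjusted p = 0.975). Its second probe, whose mm9 positions span 2266 bases, more than the probe's own length, gave 0.01 (95% interval -0.32 to 0.34). Differences within these intervals were not resolved with 3 mice per strain.

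**Figure D2:**
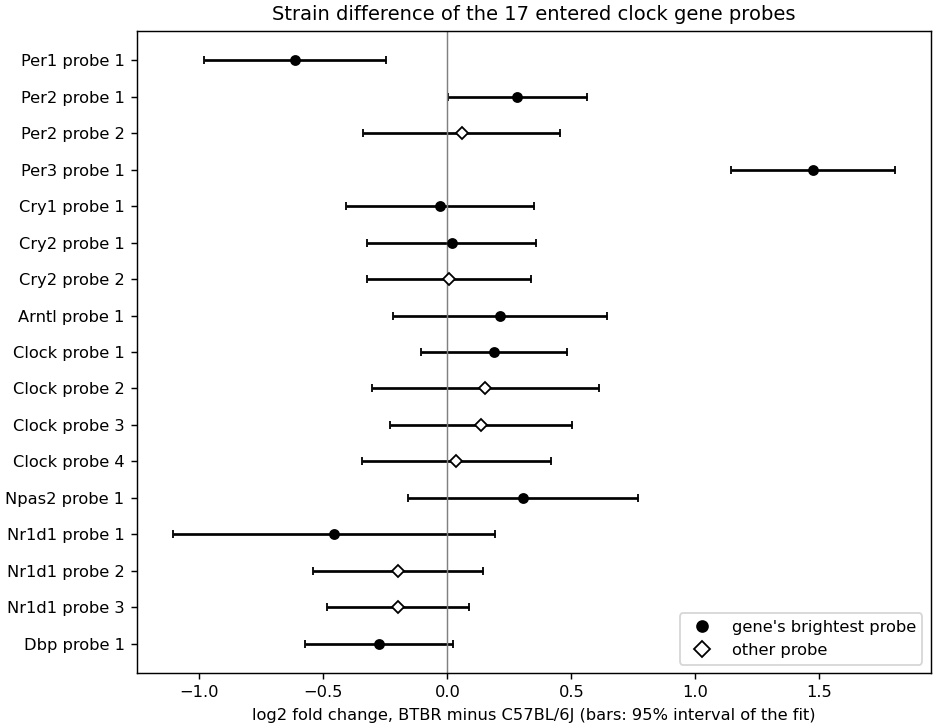
Log2 fold change (BTBR minus C57BL/6J) of each of the 17 entered probes of the 10 genes with its 95% interval from the fit over all probes; filled circles are each gene's brightest probe and open diamonds its others. The intervals of Per3 (1.47) and Per1 (-0.62) lie clear of 0 and that of the brighter Per2 probe (0.28) starts just above it, while all 4 Clock estimates are above 0 and all 3 Nr1d1 estimates below.

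The activator genes had higher means in BTBR, and none passed. Arntl, the required partner in the activator pair, was at 1.11, 1.08 and 1.59 in BTBR and 1.003, 0.89 and 1.26 in C57BL/6J. BTBR 3 and C57BL/6J 3, the mice of slide 2, were each the highest of their strain. Its log2 fold change was 0.21 ± 0.18 SE (95% interval -0.22 to 0.64, limma adjusted p = 0.652). Without BTBR 3 it was 0.0473 (adjusted p = 0.905), and without C57BL/6J 2 it was 0.13. Clock, which encodes the usual partner of ARNTL, was at -0.12, 0.11 and 0.10 in BTBR and -0.12, -0.07 and -0.30 in C57BL/6J by its brightest probe. The values overlapped through BTBR 1, and the log2 fold change was 0.19 (95% interval -0.09 to 0.47, adjusted p = 0.505), or 0.12 without C57BL/6J 3. Its 3 other probes gave 0.15, 0.13 and 0.04, each with an interval across 0. Npas2 was at -2.03, -2.53 and -2.15 in BTBR and -2.85, -2.38 and -2.40 in C57BL/6J. BTBR 2 lay among the C57BL/6J mice, and the log2 fold change was 0.31 (95% interval -0.15 to 0.76, adjusted p = 0.513), which turned to -0.06 with normexp. It was 0.15 without C57BL/6J 1 and 0.20 without BTBR 1. Without C57BL/6J 3 and BTBR 2, Arntl, Clock and Npas2 were at 0.40, 0.08 and 0.52, and none passed.

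The E-box-driven genes Nr1d1 and Dbp had lower means in BTBR. Nr1d1, the nuclear receptor that represses Arntl, was at 0.94, 0.27 and 1.33 in BTBR and 1.33, 1.43 and 1.14 in C57BL/6J by its brightest probe. BTBR 2 stood lowest, and BTBR 3 lay within the C57BL/6J range. Its log2 fold change was -0.46 ± 0.27 SE (95% interval -1.11 to 0.20, limma adjusted p = 0.487), and the other probes gave -0.20 and -0.20. BTBR 2 was the lowest of the 6 mice by all 3 probes, and by the second probe (-2.01, -2.39 and -1.98 in BTBR, -1.97, -1.85 and -1.96 in C57BL/6J) the strains did not overlap. Within slide 2, with 1 mouse per strain, the sign turned, at 0.19. Without BTBR 2 the log2 fold change was -0.17 (adjusted p = 0.752), so that array held most of the difference.

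Dbp, a PAR bZIP activator that binds D-boxes, was at 5.58, 5.35 and 5.27 in BTBR and 5.59, 5.68 and 5.76 in C57BL/6J. The strains did not overlap, though BTBR 1 and C57BL/6J 1 nearly met. Its means were 5.40 ± 0.16 in BTBR and 5.68 ± 0.09 in C57BL/6J (SD, n = 3 each), a log2 fold change of -0.28 ± 0.12 SE (95% interval -0.56 to 0.01, limma adjusted p = 0.303). With normexp the values overlapped and the log2 fold change was -0.17.

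The spread between mice of a strain also varied from gene to gene. By the brightest probes Nr1d1 had the widest, a pooled SD of 0.40 log2 units, higher than that of 86.5% of all tested genes. Its SD was 0.54 in BTBR, where BTBR 2 stood low, and 0.15 in C57BL/6J, and its other probes had SDs of 0.23 and 0.16 in BTBR and 0.07 and 0.04 in C57BL/6J. Npas2 (0.26) and Arntl (0.24) stood at the 71.8 and 67.6 percentiles, and Per1 (0.19) and Per3 (0.16) at 54.8 and 44.4. Per2 had the narrowest, 0.11, at the 23.6 percentile.

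The repressor arm (Per1, Per2, Per3, Cry1 and Cry2) was then set against the activator arm (Arntl, Clock and Npas2) on each array, as the mean log2 deviation of an arm's genes from their own 6-array means. The repressor arm was at 0.19, 0.03 and 0.12 in BTBR and -0.26, -0.14 and 0.06 in C57BL/6J. The activator arm was at 0.09, -0.01 and 0.28 in BTBR and -0.22, -0.09 and -0.05 in C57BL/6J. Both arms thus had higher strain means in BTBR, by 0.23 and 0.23. Their difference, repressor minus activator, was 0.10, 0.05 and -0.16 in BTBR and -0.04, -0.05 and 0.10 in C57BL/6J, overlapping, with strain means that differed by -0.01 and SDs of 0.14 in BTBR and 0.09 in C57BL/6J (n = 3 each). No test is given for a score over chosen genes.

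That balance depended on which genes made up the repressor arm. With Per3 left out, a choice made after seeing the data, the repressor arm was at 0.01, -0.10 and -0.03 in BTBR and -0.13, 0.04 and 0.22 in C57BL/6J. The difference from the activator arm became -0.08, -0.09 and -0.31 in BTBR and 0.09, 0.13 and 0.27 in C57BL/6J. All BTBR mice then lay below all C57BL/6J mice, with a difference of -0.32 between the strain means. Per3 had the largest rise in BTBR of the arm's genes, so leaving it out had to lower this difference. No other gene of the arm was left out alone, so the separation is no separate result. With the 3 Per genes alone as repressors the strains differed by 0.15, and with Nr1d1 and Dbp added to the full repressor arm by -0.18. The full difference was 0.12 within slide 1 and -0.26 within slide 2.

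**Figure D3:**
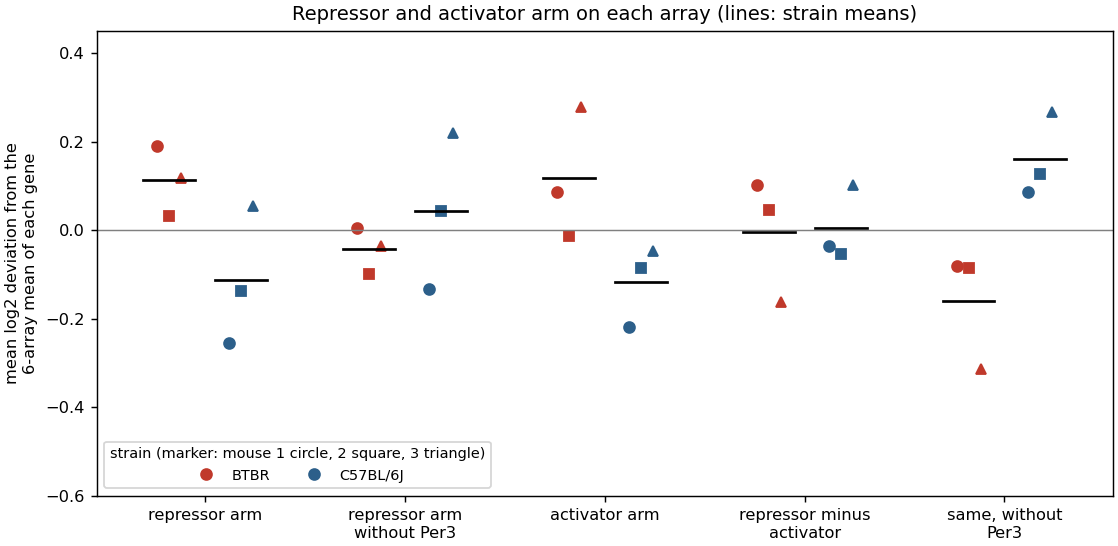
Mean log2 deviation of the repressor arm, the activator arm and their difference on each array, with and without Per3 (points: mice; lines: strain means). The difference of the full arms overlaps between strains around 0, and without Per3 it lies from -0.31 to -0.08 in BTBR and from 0.09 to 0.27 in C57BL/6J.

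Promoter windows from RefSeq (GRCm38.p6, 250 bases before to 50 after an annotated start) were searched for clock motifs. Of the 10 genes, 9 had at least 1 window, with 13 windows in all. Per2 had no window and was not searched. The letters searched on either strand were CACGTG (E-box), CACGTT (a variant E-box), TTATGTAA and TTACGTAA (D-boxes), TGACGTCA (the cAMP response element), along with the RORE, the element that ROR and REV-ERB receptors bind. None of the motifs overlapped in these windows. The Per3 window held 2 copies of TTATGTAA, at -205 to -198 and -158 to -151 from the start, a motif found in 0.938% of all 32851 windows. The first of the Per1 windows held CACGTG at -166 to -161, found in 7.15% of all windows. The Cry1 window held CACGTG, and the Cry1, Cry2 and Nr1d1 windows held CACGTT, which 4.68% of all windows have. A window of Arntl held the RORE at 28 to 37 after the start, found in 0.219% of all windows. The windows of Clock, Npas2 and Dbp held none of these letters, which says nothing of sites elsewhere. The Per3 and Per1 windows are printed because these paralogs had log2 fold changes of opposite sign, of which Per3's passed the test and Per1's did not, and the Arntl window because NR1D1 acts through that element. They are chr4:151044616-151044915 on the minus strand, chr11:69098699-69098998 on the plus strand and chr7:113207261-113207560 on the plus strand, with the motifs in capitals.
Per3 window: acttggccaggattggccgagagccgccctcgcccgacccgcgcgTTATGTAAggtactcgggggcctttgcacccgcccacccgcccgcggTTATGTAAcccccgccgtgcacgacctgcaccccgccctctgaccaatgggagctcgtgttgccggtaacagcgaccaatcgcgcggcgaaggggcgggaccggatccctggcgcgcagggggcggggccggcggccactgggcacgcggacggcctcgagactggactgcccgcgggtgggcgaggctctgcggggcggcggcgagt
Per1 window: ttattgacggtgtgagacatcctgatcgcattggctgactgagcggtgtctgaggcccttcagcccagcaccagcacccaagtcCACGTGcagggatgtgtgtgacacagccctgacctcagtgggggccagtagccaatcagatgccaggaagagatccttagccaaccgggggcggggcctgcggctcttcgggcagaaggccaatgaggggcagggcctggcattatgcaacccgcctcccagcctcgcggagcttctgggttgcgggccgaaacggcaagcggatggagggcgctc
Arntl window: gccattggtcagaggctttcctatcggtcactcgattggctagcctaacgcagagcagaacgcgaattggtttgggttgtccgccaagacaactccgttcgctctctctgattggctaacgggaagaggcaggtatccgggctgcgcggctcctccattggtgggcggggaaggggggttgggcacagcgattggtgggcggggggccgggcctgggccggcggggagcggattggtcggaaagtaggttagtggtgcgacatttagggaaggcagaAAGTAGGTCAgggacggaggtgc

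The neighbours of Per3 in the genome were compared, a step chosen after the Per3 result was seen. Of the 5 nearest tested genes on each side, in the gene order of GRCm38.p6, 1 passed the test, where 5.65% of all genes did. This was Slc45a1, a sugar transporter, which was lower in BTBR. It had -2.47, -2.88 and -2.45 in BTBR and -1.53, -1.66 and -1.86 in C57BL/6J, a log2 fold change of -0.92 (limma adjusted p = 0.0242). The nearest tested gene on either side, Park7 (-0.10, adjusted p = 0.678) and Vamp3 (-0.02, adjusted p = 0.974), did not pass.

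Of 13 other loop and output genes, all tested, 1 rose and 0 fell by the test, where 5.65% of all genes passed. At an unadjusted p under 0.05 there were 5, where 17.1% of all genes were called. The median log2 fold change was 0.01. The gene that passed was Arntl2, a paralog of Arntl, and its probes disagreed. By its brighter probe it was at -4.36, -4.20 and -4.24 in BTBR and -4.67, -4.86 and -5.04 in C57BL/6J (log2 fold change 0.59, adjusted p = 0.0492), whereas its second probe gave -0.54 (adjusted p = 0.162 over all probes). Ciart, which encodes the repressor CHRONO, had -6.05, -6.36 and -6.71 in BTBR and -4.76, -4.62 and -5.99 in C57BL/6J. All BTBR mice were below all C57BL/6J mice, its probe was well above background on 1 of 3 BTBR arrays and 3 of 3 C57BL/6J arrays, and the log2 fold change of -1.25 did not pass (adjusted p = 0.161). Timeless, a replication fork protein related to the fly clock gene, gave 0.54 (adjusted p = 0.203) by its brighter probe and 0.78 by its other, which passed over all probes (adjusted p = 0.0358).

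Of 14 genes whose products modify or degrade clock proteins, 0 passed by limma. At an unadjusted p under 0.05 there were 2 (17.1% of all genes), with a median of -0.09. Fbxl21, a ubiquitin ligase subunit for CRY proteins, gave -0.86 (adjusted p = 0.109) and its second probe -0.15. Csnk1e, the kinase CK1ε that phosphorylates PER proteins, gave 0.37 (adjusted p = 0.165), with 5.44, 5.58 and 5.43 in BTBR and 5.29, 5.05 and 5.00 in C57BL/6J. The deacetylase gene Sirt1 gave 0.37 (adjusted p = 0.334) and the kinase gene Prkaa1 -0.18 (adjusted p = 0.410).

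**Figure D4:**
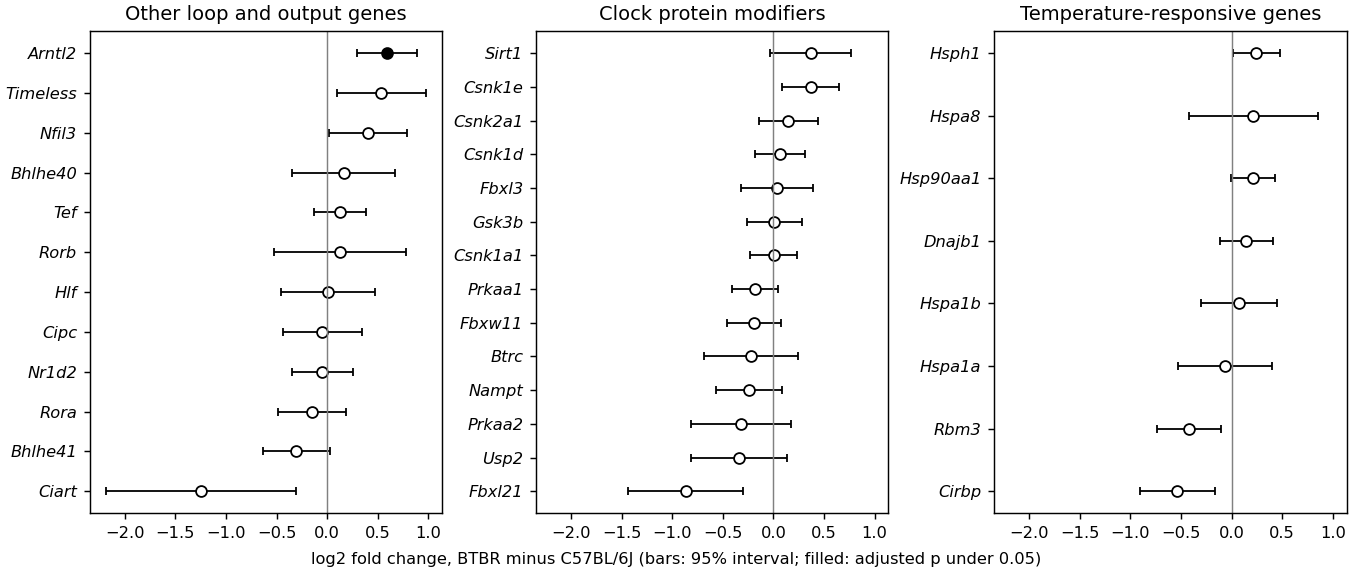
Log2 fold change (BTBR minus C57BL/6J) with its 95% interval for the other loop and output genes, the modifiers of clock proteins and temperature-responsive genes, each by its brightest probe (1 loop gene is not drawn); filled points passed the test over all genes. Arntl2 is the one filled point, and Ciart has the lowest value at -1.25 with the widest interval.

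Other inputs that move Per1 or follow the day were read beside it. Of 8 temperature-responsive genes 0 passed by limma and 3 had an unadjusted p under 0.05 (17.1% of all genes), with a median of 0.11. The cold-induced RNA-binding protein genes Cirbp (3.55, 3.35 and 3.40 in BTBR, 4.15, 4.10 and 3.66 in C57BL/6J) and Rbm3 (3.27, 3.25 and 3.26 in BTBR, 3.86, 3.76 and 3.42 in C57BL/6J) had lower values in every BTBR mouse. Their log2 fold changes were -0.54 (adjusted p = 0.131) and -0.42 (adjusted p = 0.166), and a dim second Rbm3 probe gave 1.13. The heat shock protein genes Hsph1 (0.25, adjusted p = 0.271) and Hsp90aa1 (0.21, adjusted p = 0.296) had higher values in every BTBR mouse. Over all genes, the strains' values did not overlap for 23.6%. Of 11 activity-induced genes, all had higher means in BTBR, where 8529 of all 16480 genes did. By limma 0 passed and 2 had an unadjusted p under 0.05 (17.1% of all genes), with a median of 0.42. Their median log2 deviations were 0.44, 0.25 and -0.04 in BTBR and -0.24, -0.10 and -0.13 in C57BL/6J. BTBR 3 was the lowest of the 6 mice for Fos and Junb. Arc gave 0.85 (adjusted p = 0.0788). Of 7 glucocorticoid-induced genes tested, 0 passed by limma and 0 had an unadjusted p under 0.05 (17.1% of all genes), with a median of 0.15. Per1, a gene that activity and glucocorticoids raise, had lower values in BTBR, and the part of these inputs was not tested.

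The genes whose pattern over the 6 arrays was closest to the repressor arm mean, by the mean absolute difference of log2 deviations among 15374 genes, were Cacfd1 (0.02), Pdcd11 (0.02), Raver1 (0.03), Guk1 (0.03) and Bms1 (0.03). Their own strain differences were 0.22 to 0.27, and none passed (adjusted p from 0.284 to 0.478). Genes picked this way must show about the strain difference of the arm (0.23), so these values are no separate result.

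The 4 clock genes without overlap kept their signs under each of the 20 alternatives, but most of these could not have turned a sign. Where strains do not overlap, leaving mice out or taking a single slide keeps the sign. The blocks, the prior, the other dim-probe filters and kept flags left the estimates at their reported size. Per3 passed in 18 of the 19 that allow a test, with log2 fold changes from 0.92 to 1.63. Per1 ran from -0.96 to -0.44 and passed in 1. Per2 ran from 0.07 to 0.39 and Dbp from -0.49 to -0.17, and these 2 passed in 0.

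**Figure D5:**
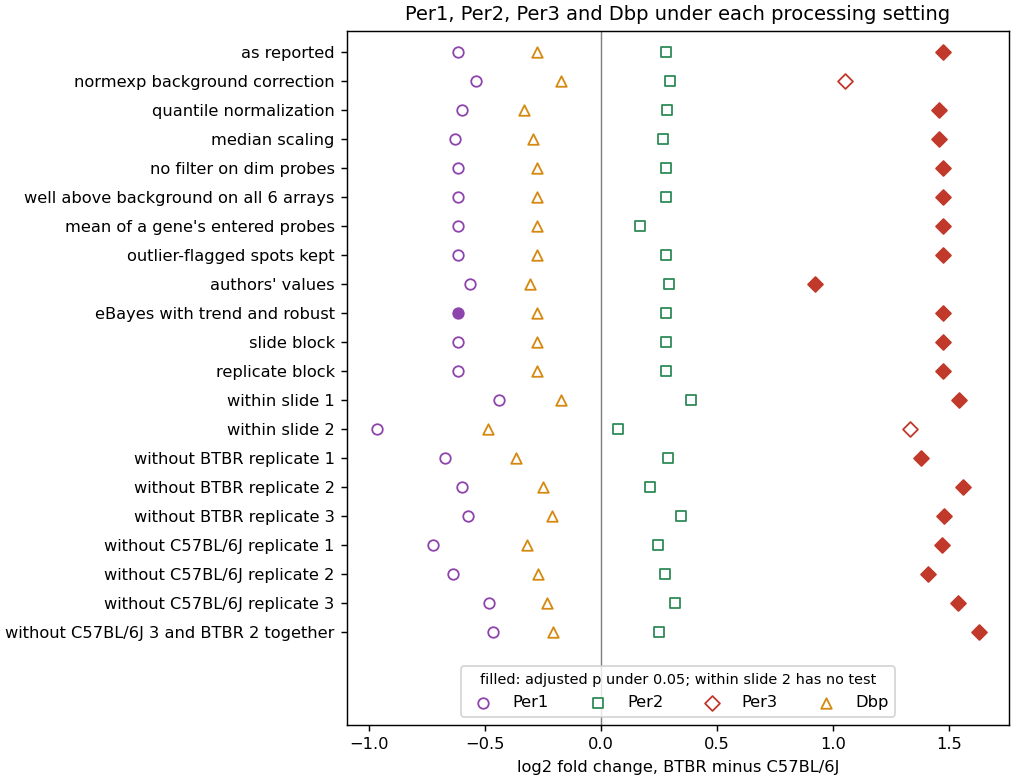
Log2 fold change (BTBR minus C57BL/6J) of Per1, Per2, Per3 and Dbp as reported and under 20 other settings, including each mouse left out; filled symbols passed the test, and the values within slide 2 have no test. Per3 stays at 0.92 or above, and Per1 and Dbp stay below 0.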

How the data were processed

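RNA of 6 mice was hybridised to 6 arrays, 3 BTBR and 3 C57BL/6J, from 0.5 µg of RNA with an integrity number of 9, per the labels. The deposited scanner files hold intensity values on a linear scale. Their headers give Feature Extraction 10.7.3.1 as the Agilent software, whereas version 9.1 stands in the submitters' processing notes. The authors' deposited matrix holds log2 values of unstated scaling and centring, with array medians of 8.82 to 8.83, and it served as an alternative.

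From the processed signal, log2 values were reduced by each array's 75th percentile. Spots flagged as outliers were dropped if the probe had another, and the rest were averaged per probe. A probe entered when well above background on at least 3 of 6 arrays (30011 probes). A gene took its brightest entered probe. RefSeq names of GRCm38.p6 came by accession for 27816 probes, symbol for 5503 and synonym for 380, with 1084 keeping the file's name and 6391 unnamed. Strains were compared with lmFit and eBayes of limma 3.58.1 under R 4.3.3. The fit was also run on simulated data with independent noise for each gene and array. Those data held no differences shared by many genes of an array, such as the striatal markers show, so they do not bear on the calls. The number of arrays limits the precision. The p-values weigh a strain difference against the spread between these mice, moderated over all genes. The labels do not tie arrays to litters or dissection days, so the p-values cannot account for either.

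A gene of the other loop list is counted but not reported here by name. The members and lists were chosen with earlier results of these data known. Named genes are the members' probes, of each other list those past the test and otherwise up to 4 by smallest p, and the 5 genes closest in pattern to the repressor arm. Alternatives covered background, scaling, filters, probes, flags, the authors' values, the prior, slide, blocks, the arms' members and left-out mice.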

Additional observations from a re-analysis of the deposited data

How the results depend on the processing

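With normexp, 192 genes passed, 72.4% of them lower in BTBR, against 931 and 61.5% as reported. It called 0 clock members by limma, with Per3 at 1.05 (adjusted p = 0.169), and turned Npas2 to -0.0574 and the second probes of Per2 (-0.19), Cry2 (-0.23) and Clock (-0.10 and -0.23). The trended, robust prior called 2 members, Per1 among them (-0.62, adjusted p = 0.0348). The replicate block called 497 genes and left Per3 called (adjusted p = 0.0135). Deviations of same-numbered mice had correlations of 0.05, -0.15 and -0.08, inside the range of differently numbered mice (-0.26 to 0.32). With 3 mice per strain this cannot decide whether the numbers pair them, and the main fit did not pair them. Leaving out 1 mouse gave 435 to 900 genes, 1 clock member each time, 0 to 2 of the 27 other loop and modifier genes, and an arm difference from -0.06 to 0.07. An unadjusted p under 0.05 gave 2816 genes.

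Of the 27 other genes 1, Arntl2, was called as reported. Elsewhere it was called only with probes well above background on all 6 arrays and with flagged spots kept. Ciart was called instead with the slide block, and was among those called within slide 1, without C57BL/6J 3, and without C57BL/6J 3 and BTBR 2. Normexp, quantile and median scaling, no filter, the mean of probes, the authors' values, the trended prior and the replicate block each called 0, and slide 1 alone and the setting without C57BL/6J 3 and BTBR 2 each called 2. These counts were added after seeing the data. The arm difference moved to 0.12 within slide 1 and -0.26 within slide 2, where fewer mice enter. With the repressor arm's genes changed it moved to -0.18 with Nr1d1 and Dbp, 0.15 with Per genes alone and -0.32 without Per3. Near 0, Cry1 turned to 0.0390 within slide 1, 0.15 without C57BL/6J 3 and BTBR 2, and ranged from -0.17 to 0.0907 with 1 mouse left out. Cry2 turned to -0.0251 in the authors' values and ranged from -0.0533 to 0.13 with 1 mouse left out. Nr1d1 turned to 0.19 within slide 2. Where no reason is given, the cause was not tested.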
